A study of Mus musculus with 11 samples.

Results

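The expression of 10 genes that mark the choroid plexus epithelium, the secretory cell layer that makes cerebrospinal fluid, was followed through single-cell RNA sequencing of mouse cerebral cortex: Ttr, Folr1, Kcnj13, Clic6, Aqp1, Otx2, Enpp2, Htr2c, Trpm3 and Sostdc1. They were taken by name as known identity genes of this epithelium, 10 of the 26921 genes in the deposited counts, and each had UMIs in all 11 libraries. A UMI (unique molecular identifier) stands for 1 captured RNA molecule. Choroid plexus epithelial (CPE) cells were the cells in which Ttr gave at least 10% of the UMIs, 6836 of the 50625 cells that passed the filters. Ttr therefore chose the cells, and its level in them is given as a description only.

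The study compared blood vessel-associated cells of C57BL/6 mice at 3 ages and in experimental autoimmune encephalomyelitis (EAE), a model of autoimmune inflammation of the nervous system. Its methods name females unless stated otherwise and give no other sex for these libraries. Juvenile mice were 10 days old (4 libraries, each from 6 pooled mice), Adult mice 7 to 11 weeks (3 libraries, 6 mice each) and Aged mice 18 months (2 libraries, 3 mice each), all untreated. EAE mice were females of 7 to 11 weeks immunized with a myelin oligodendrocyte glycoprotein peptide in complete Freund's adjuvant and given pertussis toxin (2 libraries, 3 mice each, taken at the peak of disease). The dissected tissue was cortex, not choroid plexus, digested to single cells and depleted of myelin, and libraries of pooled mice hold no spread between animals. Whether near-identical pairs (Juvenile 1 and 2, Juvenile 3 and 4, Adult 2 and 3) came from separate pools of mice or from 1 cell suspension loaded more than once is not stated in the sources used here.

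The epithelium forms the barrier between blood and cerebrospinal fluid. Cells of this layer secrete the thyroid hormone carrier transthyretin (Ttr) and the lysophospholipase autotaxin (Enpp2), take up folate through the folate receptor (Folr1), and move water and ions through the water channel Aqp1, the inward rectifier potassium channel Kcnj13, the chloride intracellular channel protein Clic6 and the cation channel Trpm3. Htr2c encodes a serotonin receptor whose RNA is abundant in choroid plexus, Sostdc1 a secreted antagonist of BMP and Wnt signalling, and Otx2 a homeodomain transcription factor needed for the development and upkeep of the tissue.

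The mean Ttr share lay far apart in CPE cells and in all others, as the plot of Ttr per cell shows. In CPE cells Ttr took 31.0% to 36.0% of all UMIs in every library, and in the other cells 0.49% to 1.78% in 10 libraries and 4.96% in Adult 1. Few cells lay near the limit, 142 between 8% and 10% (70 of them from Adult 1) and 94 between 10% and 12%. Libraries had 15755504 to 34326349 UMIs and 185 to 1154 CPE cells each, and any pair of libraries shared 13 to 125 cell barcodes. The median CPE cell had 3882 to 5772 UMIs in Adult, 5103 and 5805 in Aged, 7772 to 10299 in Juvenile and 9264 and 10772 in EAE libraries. The median over non-CPE cells of Adult 1 was 5.21% Ttr, so this library stood apart and is given separately where a result rests on it.

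**Figure D1:**
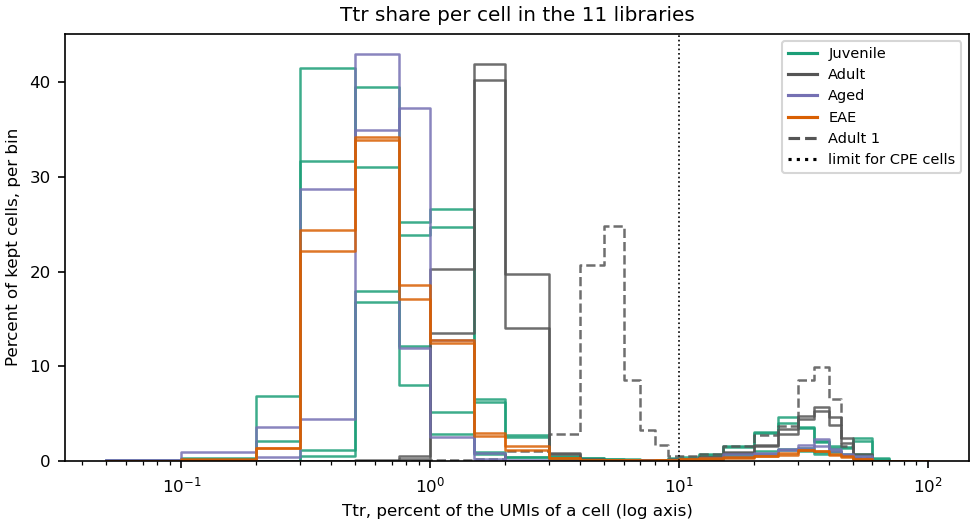
Percent of the kept cells of each library (y axis) in bins of the Ttr share of a cell's UMIs (x axis, log scale), 1 line per library, coloured by group. A lower and an upper peak are seen in each library, and the lower one of Adult 1 (dashed), whose median non-CPE cell had 5.21%, lies to the right of those of the other 10 libraries. The dotted line is the 10% limit.

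In 11 of 11 libraries all 10 members were higher in CPE cells than in any other class compared, for Ttr by the choice of cells. Only classes with at least 50 cells in a library were compared. Ependymal cells thus entered only in Juvenile libraries, and oligodendrocytes only in Adult 2 and Adult 3. The median ratio to the next class was 54.6 for Enpp2, 46.0 for Htr2c, 43.1 for Ttr, 42.4 for Sostdc1, 37.1 for Trpm3, 33.8 for Clic6, 25.4 for Otx2, 23.9 for Kcnj13, 20.2 for Folr1 and 14.8 for Aqp1. The lowest ratio in any library was far smaller, from 4.41 (Trpm3) to 12.1 (Sostdc1), with 4.72 for Folr1, 4.96 for Otx2 and 7.49 for Enpp2. These ratios are descriptions, since Ttr chose the cells and the members were taken as genes known for this epithelium. Over 103 sums of 1 class in 1 library (15 classes), the genes whose log2 level followed the mean z score of the 10 members most closely were Cab39l (Pearson r = 0.94), Kcne2, a potassium channel subunit (0.91), Epn3 (0.91), the carbonic anhydrase gene Car12 (0.91) and D630024D03Rik (0.91). These correlations are descriptions, since the sums of a library share free RNA and depth. Of the members themselves, Ttr had r = 0.97 and Aqp1 the lowest, 0.82.

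Sequence upstream of the transcription start was at hand for 5 members (RefSeq, GRCm38.p6). Those shown are Aqp1 and Htr2c, the pair furthest above adult levels in juvenile CPE cells, Kcnj13, the furthest below them, and Otx2, whose product binds TAATCC. The 250 bases before a start are printed 5′ to 3′ on the strand of the gene, and capitals mark TAATCC or its reverse complement GGATTA.

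Aqp1, chr6:55336049-55336298, plus strand: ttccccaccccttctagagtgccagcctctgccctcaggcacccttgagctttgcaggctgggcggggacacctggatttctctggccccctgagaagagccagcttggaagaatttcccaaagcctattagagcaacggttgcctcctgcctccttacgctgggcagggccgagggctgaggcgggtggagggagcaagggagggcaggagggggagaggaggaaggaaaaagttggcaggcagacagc

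Htr2c, chrX:146962263-146962512, plus strand: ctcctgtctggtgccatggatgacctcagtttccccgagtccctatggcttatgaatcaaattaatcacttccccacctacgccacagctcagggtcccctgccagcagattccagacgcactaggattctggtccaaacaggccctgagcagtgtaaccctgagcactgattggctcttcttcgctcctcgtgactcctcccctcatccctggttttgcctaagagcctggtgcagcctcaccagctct

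Kcnj13, chr1:87394730-87394979, minus strand: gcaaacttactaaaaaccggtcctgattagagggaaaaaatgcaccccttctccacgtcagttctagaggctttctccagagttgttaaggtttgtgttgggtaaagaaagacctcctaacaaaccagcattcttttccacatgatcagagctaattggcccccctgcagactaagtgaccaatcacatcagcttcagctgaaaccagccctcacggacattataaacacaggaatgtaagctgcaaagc

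Otx2, chr14:48665110-48665359, minus strand: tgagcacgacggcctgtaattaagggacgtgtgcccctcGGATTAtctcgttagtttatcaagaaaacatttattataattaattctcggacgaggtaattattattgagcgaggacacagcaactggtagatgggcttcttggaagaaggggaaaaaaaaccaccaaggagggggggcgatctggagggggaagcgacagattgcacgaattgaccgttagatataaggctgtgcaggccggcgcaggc

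The motif was found before 1 of the 4 starts of Otx2, 211 bases upstream of it, and before none of the starts of Aqp1, Htr2c, Kcnj13 or Trpm3. Of 32851 promoters of the same length, 6.25% held it on either strand.

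Levels are in CPM, UMIs on a per-million scale of all UMIs except those of Ttr, and they compare libraries for 1 gene, not genes with each other. Because the near-identical library pairs were summed, group means ± SD are over 2 units per group. Adult CPE cells served as the control of all 3 comparisons, so these are not independent of each other.

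At 10 days, water channel, serotonin receptor and cation channel transcripts were higher than in adults and autotaxin was lower. Aqp1 was 956, 876, 909 and 886 CPM in the Juvenile libraries against 257, 214 and 208 in the Adult ones. The groups did not overlap (907 ± 12.7 and 234 ± 32.4, SD, n = 2 units), and the fitted log2 fold change was 1.75 (SE 0.13, adjusted p = 5.82e-08, edgeR). Htr2c was 1276, 1197, 1091 and 1148 in Juvenile and 491, 358 and 363 in Adult libraries, 1.26 higher on the log2 scale (SE 0.14, adjusted p = 3.88e-06). Trpm3 stood at 919, 924, 937 and 952 against 457, 375 and 362 (log2 fold change 0.98, SE 0.13, adjusted p = 1.69e-05). For all 3 of these channel and receptor genes, every Juvenile library lay above every Adult one. How many of all genes lay apart in this way, here or in the other comparisons, was not counted. Otx2, the transcription factor, was 315, 343, 302 and 277 in Juvenile and 207, 152 and 189 in Adult libraries, again without overlap, with a smaller log2 fold change of 0.51 (SE 0.12, adjusted p = 0.00312).

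Enpp2 was the most abundant member after Ttr by UMIs, with 9458, 10078, 10174 and 10492 CPM in Juvenile and 24809, 21524 and 20520 in Adult libraries. At 10 days it was 1.39 lower on the log2 scale than in adults (SE 0.13, adjusted p = 6.86e-07). Kcnj13 was 41.4, 71.4, 28.2 and 24.0 in Juvenile and 307, 148 and 142 in Adult libraries and fell by 2.76 (SE 0.61, adjusted p = 0.0204), the largest change of any member with the widest error (Adult mean 226 ± 115, SD, n = 2 units). Without Adult 1 its log2 fold change was -2.20 with adjusted p = 0.0584, without Juvenile 3 and 4 it was -2.19 with adjusted p = 0.0891, and with Aged and EAE libraries also summed -2.74 with adjusted p = 0.0650. The call of Enpp2 was lost in 1 of 29 alternative fits, without cells with 5 UMIs of another class's markers (-0.91, adjusted p = 0.0666). This limit is a plain count, not a share of UMIs, and left 3 to 101 CPE cells a library. Its marker lists hold Clu and Foxj1, which are also on the list of further epithelial genes below. Folr1 (-0.16, SE 0.12), Clic6 (-0.00, SE 0.12) and Sostdc1 (0.19, SE 0.13) did not pass the test, with adjusted p = 0.305, 0.994 and 0.23.

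Of the 9 members tested, 6 were called at 10 days against adults, 4 higher and 2 lower at 10 days. Of all 12929 genes tested, 49.5% were called (23.6% higher and 25.9% lower at 10 days). When plain totals replaced the TMM factors, the median over all genes moved from -0.03 to 0.17 on the log2 scale and the split of calls from 3051 higher and 3343 lower to 4060 and 2303, so small changes carry this shift. Over the 29 alternative fits the log2 fold change ran from 0.40 to 1.84 for Otx2, 1.08 to 3.02 for Htr2c, 0.85 to 2.34 for Trpm3 and 1.64 to 2.17 for Aqp1, each called in all of them and each highest with the 5-UMI limit. Sostdc1 was also called in 3 of them, with plain totals (0.40, adjusted p = 0.00722), with 11 libraries entered separately (0.21, 0.0347) and with the 5-UMI limit (0.95, 0.00234). In cells of 5000 to 15000 UMIs only, Folr1 was also called (-0.48, adjusted p = 0.00354).

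In EAE the members went in both directions. Clic6 was 1666 and 1637 CPM in the EAE libraries against 941, 851 and 898 in Adult ones, 0.83 higher on the log2 scale (SE 0.12, adjusted p = 0.000163). Trpm3 was 938 and 873 (log2 fold change 1.10, SE 0.13, adjusted p = 2.55e-05), and Otx2 363 and 368 (0.92, SE 0.12, adjusted p = 8.78e-05), both above all Adult libraries. Over the 29 alternative fits these ran from 0.99 to 1.64 for Trpm3 and from 0.82 to 1.69 for Otx2, both called in all of them. Sostdc1, the secreted BMP and Wnt antagonist, was 900 and 901 in EAE and 1599, 1493 and 1529 in Adult libraries and fell by 0.82 (SE 0.13, adjusted p = 0.000357). Kcnj13 was 46.2 and 29.6 and fell by 2.60 (SE 0.61, adjusted p = 0.0397). The call of Kcnj13 was lost in 11 of 29 alternative fits, with adjusted p = 0.0988 without Adult 1, 0.161 without EAE 1, 0.211 without EAE 2, 0.0537 without Juvenile 1, 0.0502 without Aged 1 and 0.0505 without Aged 2. With the same 5-UMI limit on markers of another class, Clic6 was no longer called (0.56, adjusted p = 0.190), nor was Sostdc1 (-0.59, adjusted p = 0.152), whose call was also lost at a Ttr limit of 5% (-0.54, adjusted p = 0.115). Aqp1 (0.14, SE 0.13), Enpp2 (0.09, SE 0.13), Folr1 (0.07, SE 0.12) and Htr2c (0.24, SE 0.14) did not pass the test.

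Of 9 members, 3 were thus called higher and 2 lower in EAE, beside 28.8% of all genes tested (14.8% higher and 14.0% lower). Htr2c was called in 5 of 29 alternatives, those with cells of 5000 to 15000 UMIs (0.69, adjusted p = 0.000925), without Adult 1 (0.45, 0.00521), with 11 libraries entered separately (0.32, 0.0345), at a Ttr limit of 5% (0.55, 0.0382) and with cells chosen by 8 outside markers (0.51, 0.0177).

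At 18 months no member was called, beside 1.14% of all genes tested by edgeR. At an unadjusted p under 0.05, 1480 of the 12929 genes passed. Otx2 came nearest, at 266 and 267 CPM in Aged libraries against 207, 152 and 189 in Adult ones, without overlap (log2 fold change 0.53, SE 0.13, adjusted p = 0.0503). DESeq2 called it (0.55, adjusted p = 0.0151), as did 12 of 29 alternative fits in all, among them those without Adult 1 (0.65, adjusted p = 0.00346), Adult 3 (0.61, 0.0362), Juvenile 1 (0.54, 0.0471), Juvenile 2 (0.54, 0.0395), Juvenile 4 (0.54, 0.0417) or Adult 2 and 3 (0.43, 0.0488). Sostdc1 was 2031 and 1703 (0.30, SE 0.13) and the remaining members changed by -0.21 (Aqp1) to 0.16 (Trpm3). In cells of 5000 to 15000 UMIs both Otx2 (0.82, adjusted p = 0.00204) and Trpm3 (0.65, adjusted p = 0.00818) passed.

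**Figure D2:**
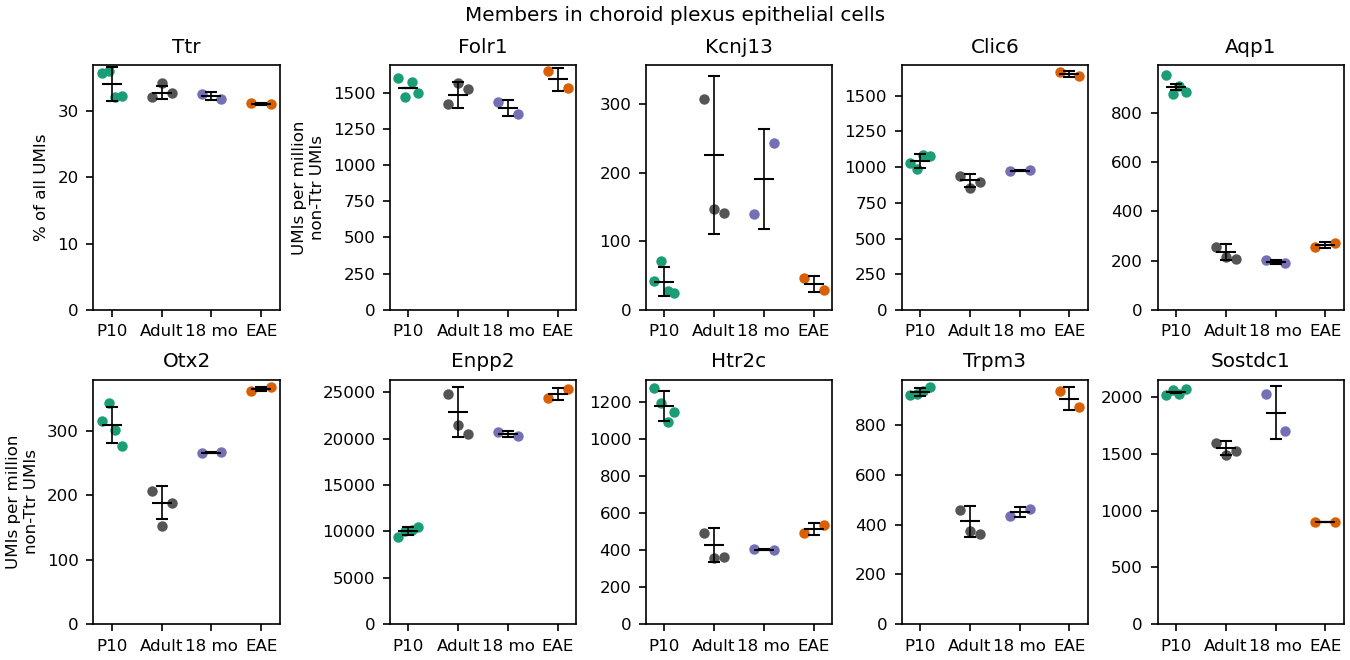
Level of each member in the CPE cells of each library (points) with the mean ± SD over 2 units of each group (bars), in percent of all UMIs for Ttr and in CPM for the rest, all axes from 0. Aqp1 and Htr2c are highest at 10 days, Sostdc1 is lowest and Clic6 highest in EAE, and Kcnj13 varies most within a group.

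**Figure D3:**
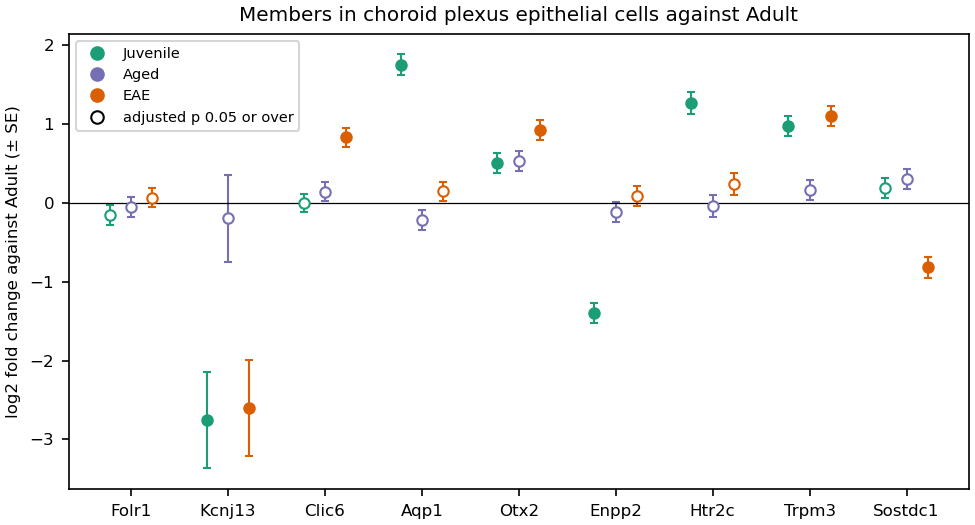
Log2 fold change of 9 members in CPE cells against Adult (y axis, points with SE), coloured by comparison, with filled points for an adjusted p under 0.05. Trpm3 and Otx2 lie above 0 and Kcnj13 below 0 in both Juvenile and EAE, and Aqp1, Htr2c and Enpp2 have filled points at 10 days and open ones in EAE and Aged.

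Ttr itself gave 35.7%, 36.0%, 32.2% and 32.3% of CPE UMIs in Juvenile, 32.1%, 34.2% and 32.8% in Adult, 32.6% and 31.8% in Aged, and 31.2% and 31.0% in EAE libraries. On this scale its highest library was 1.16 times its lowest, in cells chosen by a floor on the same share. Of the other 9 members, all on the CPM scale, Folr1 had the narrowest range with 1.22, from 1353 in Aged 2 to 1649 in EAE 1. Clic6 spanned 1.96-fold, Sostdc1 2.30, Otx2 2.43, Trpm3 2.63, Enpp2 2.68, Htr2c 3.56 and Aqp1 5.02-fold.

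Kcnj13 spanned 12.8-fold and differed between libraries of 1 group, with 57 UMIs in Juvenile 1 and 93 in Juvenile 2, and 271 in Aged 1 and 535 in Aged 2. The gene lies on the minus strand (chr1:87386363-87394729, GRCm38) inside Gigyf2, a gene of the plus strand at chr1:87326998-87450796. Whether counting used strand is not stated in the sources used here, so reads of the pair cannot be told apart. Gigyf2 was 73.6 ± 30.5 CPM in Adult (SD, n = 2 units) and 61.9 ± 1.08 in Juvenile CPE cells. Otx2 (chr14:48657677-48673819, minus strand) likewise overlaps the antisense gene Otx2os1, which was not analysed here. Other loci are Aqp1 at chr6:55336432-55348555, Htr2c at chrX:146962513-147197277, Trpm3 at chr19:22139046-22995410, Folr1 at chr7:101858331-101870788, Clic6 at chr16:92485736-92541243, Enpp2 at chr15:54838901-54952892 and Sostdc1 at chr12:36314139-36318452.

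Depth and cluster moved with the groups, and their part in the results was not tested beyond the alternatives given. Of the CPE cells of Juvenile libraries 80.3% fell into 1 cluster (cluster 10), of Adult and Aged cells 87.8% and 79.2% into another (cluster 3), and of EAE cells 50.4% into cluster 15, whose median cell had 18270 UMIs. Within a library, the CPE cells above the median depth had more Htr2c than those below it by a median of 0.81 on the log2 scale, more Trpm3 by 0.56 and more Otx2 by 0.46, in 8, 9 and 9 of 11 libraries. Clic6 was higher in the deeper cells of 9 of 11 libraries, by a median of 0.24 and by 0.57 and 0.59 in the EAE libraries. Folr1 (-0.15) and Enpp2 (-0.16) were lower in the deeper cells at the median. With every cell thinned to 1000 UMIs of genes other than Ttr, the log2 fold changes of the members kept the direction given above wherever they had been called, and Kcnj13 in EAE was at -2.99 (SE 0.89) but no longer called (adjusted p = 0.105).

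Markers of most other cell classes also moved with the groups, and their part in the results was not tested. Ependymal markers differed little, with sums in CPE cells of 414 to 499 CPM in Juvenile and 489 to 593 in Adult libraries. They were 447 to 460 in Aged and 478 to 502 in EAE libraries. Endothelial markers in CPE cells summed to 661 to 785 CPM in Juvenile, 2382 to 2975 in Adult, 1879 and 2220 in Aged, and 747 and 944 in EAE libraries (6 of 6 markers present in each group). Fibroblast markers summed to 226 to 253 in Juvenile, 34.4 to 53.6 in Adult, 44.4 to 55.8 in Aged and 93.3 to 103 in EAE libraries (1 of 6 at 0 in EAE). Neuron markers gave 288 to 413, 21.7 to 85.1, 28.9 to 39.5 (2 of 6 at 0) and 47.6 to 49.5 (1 of 6 at 0). Astrocyte markers gave 1977 to 2177, 3888 to 4709, 3353 to 3377 and 2878 to 2920, and red blood cell markers 159 to 2375, 516 to 5935, 3445 to 8825 and 101 to 116, in the same order of groups. The astrocyte list holds Clu, which is also on the transport and secretion list of the epithelium below. Clu alone gave 1754.5 to 2021, 3817 to 4443, 3238 to 3284 and 2791 to 2829, most of each astrocyte sum. Neutrophil markers gave 3.84 to 16.5, 63.8 to 90.9, 384 to 480 and 236 to 258 (1 of 6 at 0 in all groups but Aged), monocyte or macrophage markers 21.4 to 28.9, 157 to 376, 291 to 387 (1 of 5 at 0) and 362 to 562, and oligodendrocyte markers 76.7 to 126, 207 to 483, 41.3 to 53.1 and 25.3 to 27.8 (2 of 6 at 0). Perivascular macrophage markers gave 47.5 to 101, 98.5 to 196, 86.7 to 105 and 24.9 to 39.3, mural markers 56.2 to 253, 243 to 517, 149 to 172 and 105 to 121, and microglia markers 127 to 201, 122 to 356, 184 to 223 and 76.0 to 106. T or NK cell markers gave 1.45 to 9.33, 4.71 to 22.3, 19.6 to 36.3 and 38.8 to 48.1, and B cell markers 12.3 to 25.1, 52.9 to 67.3, 56.8 to 87.1 and 41.1 to 45.1 (1 of 6 at 0 in Aged and in EAE). CPE cells were also left out when markers of another class had at least 5 UMIs and took at least 0.3% of their UMIs. With them left out, 6 members were called in Juvenile and 5 in EAE, as many as with all cells. The astrocyte, ependymal, red blood cell and monocyte or macrophage lists took no part in this limit, nor did Itm2a, Vtn and Meg3. Cells with RNA of those classes were therefore not taken out by it.

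The share of single cells with a UMI was also counted. After thinning each cell to 1500 UMIs, 50.7% to 60.1% of Juvenile CPE cells had an Aqp1 UMI and 17.0% to 21.7% of the cells in the other 7 libraries. The unthinned shares were 83.2% to 96.8% and 41.7% to 67.2%. In endothelial cells, which should lack most members (here including a cluster of them led by Gkn3), thinned shares for Aqp1 were 0.36% to 3.94%, the highest being Adult 1 (median endothelial cell 2246 to 8317 UMIs, median CPE cell 3882 to 10772). Kcnj13 had a UMI in 30.5% of thinned CPE cells and 1.65% of endothelial cells of Adult 1, and in 2.51% to 18.6% and 0% to 0.20% of those of the other 10 libraries. Cells under 1500 UMIs were left out, 258 Adult, 38 Aged, 35 EAE and 13 Juvenile CPE cells, and 294, 774, 937 and 39 endothelial cells.

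The transport and secretion list holds 50 further genes of the epithelium, 48 of which were tested, and was put together with earlier results known. At 10 days 17 of them were higher and 18 lower than in adults (median log2 fold change 0.03, and -0.03 over all genes), where 23.6% and 25.9% of all genes tested were called higher and lower. The tight junction gene Cldn1 (1.57), Vegfa, a vascular growth factor gene (1.44), and the transcription factor genes Foxj1 (1.26) and Lmx1a (1.07) were higher at 10 days. Atp7b, a copper transporter gene, was too (1.23, adjusted p = 0.0249), at a low level of 95 UMIs in Juvenile and 39 in Adult libraries (means 7.53 and 2.85 CPM). The call of Atp7b was lost in 4 of 27 alternative fits, without Adult 3 (0.97, adjusted p = 0.0747), without Juvenile 3 and 4 (1.12, 0.162), with DESeq2 (1.24, 0.113) and at a Ttr limit of 5% (1.42, 0.0520). The prolactin receptor gene Prlr was 90.8, 118, 153 and 147 CPM in Juvenile and 1041, 759 and 752 in Adult libraries (adjusted p = 1.32e-07). In the same direction, the retinol dehydrogenase gene Rdh5 was lower at 10 days by 2.80 and the ferroxidase gene Cp by 2.79. Cp was hardly detected, with 18 UMIs in all Juvenile and 121 in all Adult libraries (means 1.24 and 8.74 CPM), against 1387 and 9693 for Rdh5. The zinc transporter gene Slc39a4 was lower by 1.72, the glucose transporter gene Slc2a1 by 1.69 and the carbonic anhydrase gene Car2 by 1.40. With the 5-UMI limit the calls of Prlr (-0.98, adjusted p = 0.0505) and Slc2a1 (-0.93, 0.130) were lost. Mean Slc2a1 was 122 CPM in Juvenile, 343 in Adult, 271 in Aged and 250 in EAE units. The endothelial marker sums given above had the same order of groups. Slco1c1 was 292, 478, 483 and 372. The part of endothelial RNA in these values was not tested.

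In EAE 15 list genes were higher and 6 lower (median 0.26, and -0.01 over all genes), where 14.8% and 14.0% of all genes tested were called. Cldn1 was again higher than in adults (213 and 217 CPM against 79.6, 51.8 and 54.9, log2 fold change 1.67). The sodium, potassium and chloride cotransporter gene Slc12a2 (1.21), the bicarbonate transporter genes Slc4a5 (adjusted p = 8.77e-05) and Slc4a10 (0.75), Abcc1, an export pump gene (adjusted p = 0.000707), and Slc13a4, a sulfate transporter gene (0.99), also rose. The call of Abcc1 was lost with cells thinned to 1000 UMIs (0.81, adjusted p = 0.128) and that of Slc13a4 with the 5-UMI limit (1.49, 0.0542). Clu (-0.60), Igfbp2 (-0.59), Car2 (-0.53), Slc2a1 (-0.48), Slco1c1 (-0.39) and Slc29a4 (-0.36) fell. Of 29 alternative fits, the call was lost in 14 for Slc29a4, 8 for Slc2a1, 6 for Car2, 6 for Igfbp2, 5 for Slco1c1 and 3 for Clu, among them the fit without EAE 1 for each of these 6 genes (adjusted p = 0.0511 for Clu to 0.224 for Slc29a4), and Slc29a4 and Slc2a1 turned direction in 1 more. Without EAE 2 it was lost for Igfbp2, Car2, Slc2a1, Slco1c1 and Slc29a4. The call of Slc2a1 was also lost without Adult 1 or Adult 2 and 3. That of Slc29a4 was lost without Adult 2 and 3, Aged 1, Aged 2, Juvenile 1 and 2 or Juvenile 3 and 4. With 1 library or summed pair left out, the log2 fold change was -0.66 to -0.53 for Clu and -0.73 to -0.43 for Igfbp2. It was -0.67 to -0.38 for Car2, -0.61 to -0.35 for Slc2a1, -0.42 to -0.37 for Slco1c1 and -0.49 to -0.22 for Slc29a4.

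At 18 months Rdh5 alone was called (0.52, SE 0.12, adjusted p = 0.0404), where 0.526% of all genes tested were called higher. The call was lost in 14 of 29 alternative fits, among them those without Aged 1, Aged 2, EAE 1 or EAE 2. It was also lost without Juvenile 1 and 2 or Juvenile 3 and 4. The log2 fold change of Rdh5 was 0.47 to 0.58 when 1 library or summed pair was left out. In cells of 5000 to 15000 UMIs the log2 fold change of Rdh5 was 0.06 (adjusted p = 0.851).

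CPE cells made up 7.62%, 7.25%, 20.3% and 21.5% of the cells of the Juvenile libraries, 36.2%, 23.5% and 23.1% of the Adult, 8.68% and 8.82% of the Aged and 5.28% and 5.90% of the EAE libraries. Within the Juvenile group 1 pair of libraries thus had far fewer CPE cells than the other, and in such samples fewer CPE cells in the dissected tissue and fewer recovered cannot be told apart. The exact two-sided permutation test over libraries gave p = 0.0857 for Juvenile against Adult (smallest possible 0.0286), and p = 0.1 for Aged and for EAE, the smallest that 2 against 3 libraries allow. These tests count the near-identical pairs as separate libraries. Over the 8 units the differences from Adult were -15.6 (Juvenile), -21.0 (Aged) and -24.2 (EAE) percentage points, each with exact permutation p = 0.333, the smallest that 2 against 2 units allow.

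Droplets also take up free RNA, and outside CPE cells a Ttr UMI was seen in at least 99.96% of the cells of each library. It took 0.372%, 0.419%, 0.808% and 0.813% of UMIs in Juvenile endothelial cells, 4.84%, 1.67% and 1.75% in Adult, 0.560% and 0.775% in Aged, and 0.685% and 0.701% in EAE ones. In Adult 1 it took 5.49% in microglia, 5.42% in perivascular macrophages and 5.25% in mural cells, whereas in Juvenile 1 astrocytes had 0.752%, above the endothelial cells of that library. Summed by unit, CPE cells held 55.5% of all UMIs and the other cells had 4.96% Ttr in Adult 1, and these values were 34.4% and 1.75% in Adult 2+3, 32.5% and 0.997% in Juvenile 3+4, 19.9% and 0.812% in Aged 2, 18.4% and 0.591% in Aged 1, 16.3% and 0.696% in EAE 2, 15.5% and 0.665% in EAE 1, and 14.2% and 0.516% in Juvenile 1+2. Both values are cut at the same Ttr limit, so no test is given.

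**Figure D4:**
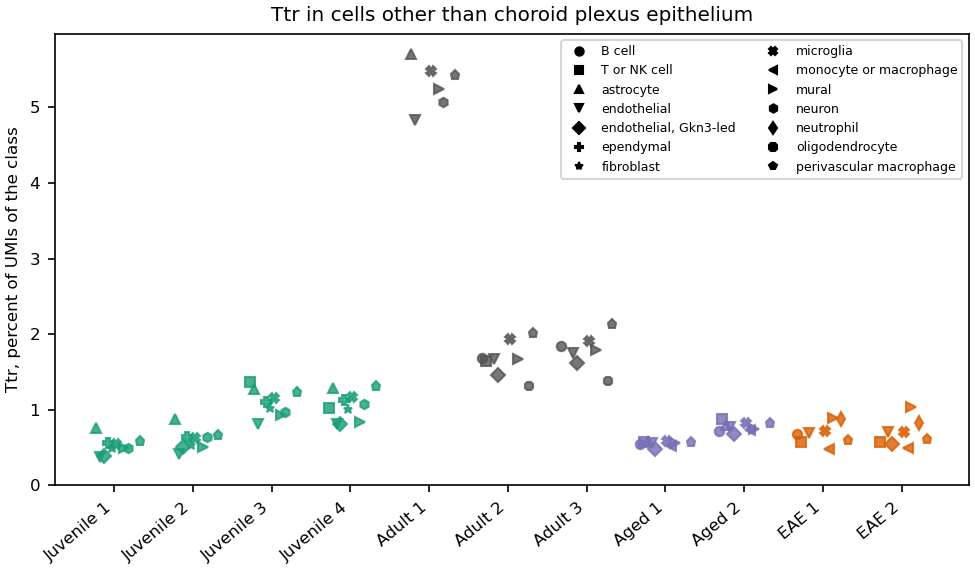
Ttr in percent of the UMIs of each non-CPE cell class with at least 50 cells (y axis) in each library (x axis), with 1 marker shape per class and colours by group. Adult 1 lies between 4.84% and 5.71%, and the highest value of the other libraries is 2.13%, in perivascular macrophages of Adult 3.

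If all member RNA in another class came with Ttr from CPE cells, each member should stand to Ttr there as it does in the CPE cells of the library. Observed UMIs were divided by the number so expected, with exact Poisson intervals that cover counting error only. Summed over 9 members, the ratio was at a median of 0.65 in microglia, 0.63 in perivascular macrophages, 0.69 in mural cells and 0.83 in endothelial cells (0.64 to 1.77 over 11 libraries). Enpp2 had the largest expected number of any member in every class, so it weighed most in these sums. In endothelial cells it had 34278 expected UMIs and Sostdc1, the next, 2554. The endothelial median was 0.89 for Enpp2 and 0.41 (Kcnj13) to 0.86 (Aqp1) for the other members. The summed ratio was above 1 in oligodendrocytes (median 3.92, 2 libraries), ependymal cells (2.21, 4 libraries) and fibroblasts (1.21, 0.82 to 1.56 over 4 libraries). In oligodendrocytes Enpp2 had 1919 UMIs against 409 expected, and every other member had 0 to 30 against 2.81 to 30.1 expected. Among these, Aqp1 had 11 against 4.10 (2.11 and 3.17 times), with the interval above 1 in 1 of 2 libraries. In fibroblasts the medians of single members ran from 0.35 (Htr2c) to 4.15 (Aqp1), with Enpp2 at 1.24. Sostdc1 was below expectation in all 11 libraries of endothelial cells (median 0.47) and of microglia (0.50).

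In 5 of 126 pairs of a member and a class the whole interval lay above 1 in every library tested. Folr1 in ependymal cells, the ciliated cells that line the ventricles, had 72, 76, 335 and 283 UMIs in the Juvenile libraries where 5.52, 5.79, 37.3 and 34.9 were expected, 8.10 to 13.1 times as many. Its level there was 212, 219, 333 and 291 CPM. Otx2 had 18, 24, 26 and 36 UMIs in the same cells against 1.09, 1.36, 7.15 and 6.48 expected (3.64 to 17.7 times), and Sostdc1 34, 35, 114 and 129 (2.37 to 4.89 times). Clic6 was above expectation in 3 of the 4 libraries. Enpp2 was above it in 1 and below it in 2 (0.74 to 1.41 times), and for Htr2c, Trpm3, Aqp1 and Kcnj13 no library's interval lay wholly above 1 (Trpm3 at 0.63 to 2.21 times and Aqp1 at 0.79 to 1.21 times the expected number). The ependymal class had 50 cells or more only in Juvenile libraries, so it was not compared with other groups.

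Enpp2 had 1048 and 871 UMIs in oligodendrocytes, the myelin-forming cells, of Adult 2 and Adult 3, where 222 and 187 were expected (4.72 and 4.67 times). It also stood above expectation in endothelial cells of all 4 Juvenile libraries, 2.73, 2.42, 1.26 and 1.24 times, and below it in those of all 7 others, 0.67 to 0.93 times. Its level in these cells was 173 to 224 CPM in Juvenile, 216 and 314 in Aged, 269 and 268 in EAE, and 557 and 578 in Adult 2 and Adult 3, and it was 2067 in Adult 1, the library with the most free Ttr.

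Aqp1 had 41, 51, 98 and 72 UMIs in Juvenile fibroblasts against 7.96, 9.05, 31.6 and 22.8 expected (3.10 to 5.64 times). In the cluster of endothelial cells led by Gkn3, counted here apart from the others, it had 31, 55 and 13 UMIs in Juvenile 1, 2 and 4 (11.8, 15.9 and 3.16 times), and 0 to 5 UMIs in each of the 5 other libraries, where no interval lay above 1. This cluster was singled out after its values were seen. Trpm3 in astrocytes had 13 and 13 UMIs in the Aged libraries (7.03 and 4.34 times the expected number), 35 against 19.8 in Adult 1, and 0.84 to 1.52 times the expected number in the 4 Juvenile libraries, where every interval held 1. Pooled over Juvenile libraries, Trpm3 was 1.01 times the expected number in astrocytes, 0.97 in mural cells and 1.22 in fibroblasts. It was 0.44 times that number in endothelial cells and 0.46 in microglia.

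**Figure D5:**
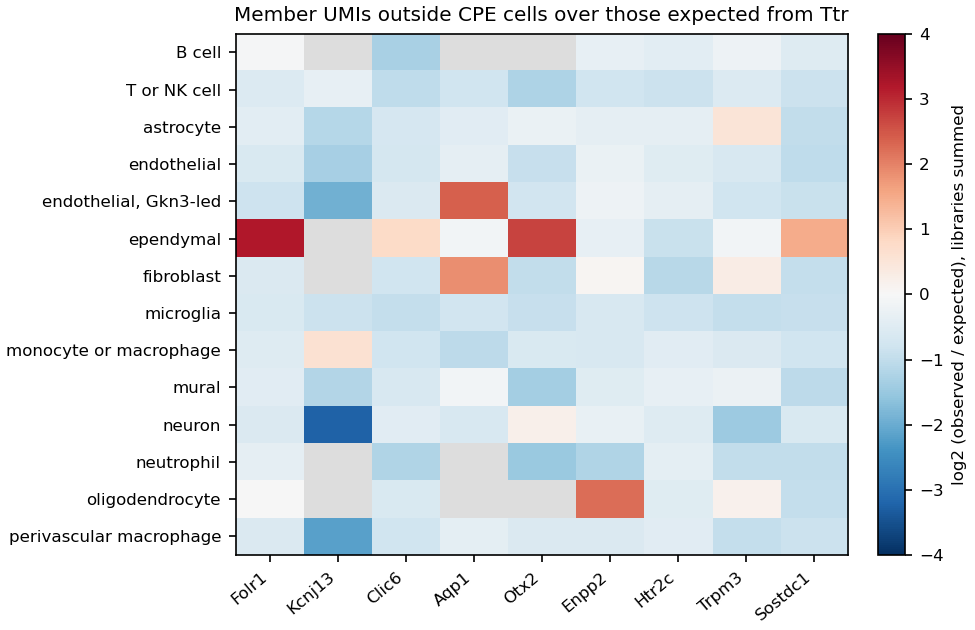
Log2 of observed over expected UMIs of each member (columns) in each non-CPE class (rows), libraries summed, with red above and blue below expectation and grey where fewer than 5 UMIs were expected. Most pairs are pale blue, and Folr1 and Otx2 in ependymal cells, Enpp2 in oligodendrocytes and Aqp1 in fibroblasts and Gkn3-led endothelial cells are the strongest red.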

How the data were processed

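Single cells were measured with the 10x 3′ assay in 11 libraries. Per the labels and the study's methods, the authors assigned reads with UMI-tools 0.5.3, STAR 2.5.3a and featureCounts 1.6.1 (versions from the submitters' processing notes; the methods name later versions of all 3) on mm10 and deposited UMI counts per gene and barcode. The annotation is not given in the sources used here.

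Cells entered when they had more than 500 but fewer than 6000 genes, with mitochondrial UMIs below 25%. They were clustered in Seurat 5.3.0 without the members (1991 variable genes, 12 components, resolution 0.5) and classes were named from marker lists. No doublet caller was run; cells with markers of another class were left out in alternatives. CPE counts were summed per library, without Ttr, into 8 units and compared by the quasi-likelihood test of edgeR 4.0.16, with robust fitting, TMM factors, the filterByExpr filter and Benjamini-Hochberg adjustment (threshold 0.05), after a test on simulated data. P-values measure the spread between these samples, which may be technical: Aged and EAE pairs were also close (chi-square per degree of freedom 2.09 and 1.67, against 1.22 to 1.43 in the summed pairs). Members, lists and rules were chosen with earlier results of these data known. Named were the members, list genes called (at most 6 per direction where over 12 were called) and the 5 most alike genes. A list gene that this rule would name is not reported here. Alternatives changed units, scaling, filters, the Ttr limit, the choice and depth of cells, and left out each library.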

Additional observations from a re-analysis of the deposited data

Results flagged for a closer look

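Ttr was also present in barcodes with 500 genes or fewer, which were left out of the main comparisons. Its share of their summed UMIs was above that in the non-CPE cells of the same library in 9 of 11 libraries, but barcodes over the 10% Ttr limit stayed in the first set and were taken out of the second. It took 1.16% and 3.79% of their UMIs in Juvenile 3 and Juvenile 4, 5.96%, 13.1% and 10.9% in Adult 1, Adult 2 and Adult 3, 1.67% and 1.37% in Aged 1 and Aged 2, and 3.60% and 4.24% in EAE 1 and EAE 2. In Juvenile 1 and Juvenile 2 it took 0.316% and 0.341%, below the non-CPE cells. The limit was reached by 146, 106 and 96 of these barcodes in Adult 1, Adult 2 and Adult 3 and by 5 of 42 in Juvenile 4. By the median barcode, the share was above that of the median non-CPE cell in 7 of 11 libraries and below it in Juvenile 3 (0.689% and 0.968%) and Juvenile 4 (0.805% and 0.955%) as well as in Juvenile 1 and Juvenile 2.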

How the results depend on the processing

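The call counts of the members held within 1.5 times at 10 days under every alternative (5 to 7 of 9) and in EAE under all but 1. Leaving out CPE cells with 5 UMIs of another class's markers left 3 to 101 cells a library, and 1082 genes were tested in place of 12929. Genes called were 212 (Juvenile), 0 (Aged) and 78 (EAE), and 2 members were called in EAE. Of 28 list genes tested, 14, 0 and 6 were called. Thinning each cell to 1000 UMIs, chosen after seeing the data as were the 0.3% limit and the depth window, gave 3464, 87 and 1169 of 6925 genes tested. Of 44 list genes tested, it gave 0 (Aged) and 11 (EAE). With Aged and EAE libraries also summed, 33 and 1395 genes and 0 and 6 list genes were called. At 18 months 269 genes were called with 11 libraries entered separately, 548 with no filter on low counts, 19 at a Ttr limit of 5% and 543 in cells of 5000 to 15000 UMIs, and DESeq2 called 2286 genes in EAE. In Aged cells 1 member (Otx2) was called with 11 libraries, DESeq2, cells chosen by 8 outside markers or the 0.3% limit, and 2 in the depth window. List genes called there were 4 in the depth window and 0 with Ttr kept, no filter, a Ttr limit of 5% or the 8 outside markers.

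Deviations of same-numbered libraries from their group means had correlations of -0.094 to 0.11. Near-identical pairs differ little, and in groups of 2 libraries the deviations mirror each other. These values therefore cannot tell whether the numbers pair libraries. With the replicate block on 11 libraries, 6998, 451 and 4273 genes, 6, 1 and 5 members, and 36, 2 and 25 list genes were called for Juvenile, Aged and EAE.

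Leaving out 1 library or summed pair gave 4194 to 6696 (Juvenile), 14 to 484 (Aged) and 1567 to 4413 (EAE) genes, 0 to 1 members and 0 to 3 list genes in Aged, and 7 to 25 list genes in EAE. The CPE share difference for Juvenile passed at a Ttr limit of 5% (-26.2 points) and with the 8 outside markers (-16.6 points), both with exact permutation p = 0.0286, with near-identical pairs counted as separate libraries. At 5% the CPE set of Adult 1 grew from 1154 to 2392 cells, where the median cell below the 10% limit had 5.21% Ttr. Over 8 units, chosen after seeing the data, p was 0.333 in each case, the smallest that 2 against 2 units allow.

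Directions turned only for members that were not called, apart from the list genes Slc2a1 (0.20) and Slc29a4 (0.10) in EAE without cells with 5 UMIs of other markers. Juvenile Folr1 became 0.051 with plain totals, 0.10 at 5% Ttr and 0.43 with the 5-UMI limit. Juvenile Clic6, near 0, was 0.018 with 11 libraries, 0.012 by DESeq2, 0.20 with plain totals, 0.0229 with Ttr kept, 0.0226 with no filter, 0.27 and 0.0118 at 5% and 20% Ttr, 0.10 with outside markers, 0.63 with the 5-UMI limit, 0.10 when thinned, 0.15 in the depth window and -0.046 to 0.098 without 1 library. At 5% Ttr, Aged Folr1 was 0.19, Kcnj13 0.19, Aqp1 0.10, Enpp2 0.18 and Htr2c 0.30. With outside markers they were 0.15, 0.11, 0.023, 0.13 and 0.25. Aged Folr1 was 0.0043 at 20% Ttr and 0.23 with the 5-UMI limit, Aged Htr2c 0.036 with 11 libraries, 0.16 with that limit and 0.32 in the depth window, and Aged Trpm3 -0.11 with it and -0.024 when thinned. In EAE, Folr1 was -0.30 in the depth window, Aqp1 -0.24 with the 5-UMI limit, and Enpp2 -0.42 with it, -0.12 when thinned and -0.066 in the window. Without 1 library, Aged Folr1 ranged from -0.14 to 0.038, Aged Htr2c from -0.22 to 0.17, Aged Kcnj13 from -0.62 to 0.41 and EAE Folr1 from -0.020 to 0.16. The causes were not tested. Each group had 2 units, with 185 to 1154 CPE cells a library.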
